A study of Mus musculus with 5 samples.

Results

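Macrophages grown from the bone marrow of BALB/c mice and kept in lipopolysaccharide (LPS) were compared between 7 h and 21 h of exposure. The comparison rests on 2 of the 5 arrays of a time course, 1 array at each of 0, 0.5, 2, 7 and 21 h, and covers 8692 genes with a value on every array. Each gene's difference is its value on the 21 h array minus its value on the 7 h array, called the step here. It addresses which genes induced by LPS had declined at 21 h, which persisted and which rose late.

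All cultures were differentiated in vitro with human CSF-1, the growth factor that drives marrow progenitors to macrophages. The 4 exposed cultures had received LPS of S. minnesota at 10 ug/ml, and the 0 h culture had received none. Each array paired macrophage RNA with RNA of whole C57BL6/J embryos at day 17.5, so a value is a log ratio to embryo, and the embryo RNA cancels in the step. No culture without LPS was measured at 7 h or 21 h, so LPS and time in culture cannot be told apart. How many mice or cultures stand behind an array is not stated by the labels. With 1 array per time there was no replicate, no test was possible, and the number of arrays limits the precision.

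LPS binds Toll-like receptor 4, which switches on NF-kappaB and, through interferon regulatory factors, type I interferon. Secreted interferon then drives further genes, many of them antiviral, through STAT proteins. Long exposure is known to bring in feedback inhibitors, a lasting shift of the transcripts for cytokines, and genes of metabolism, iron handling and repair. CSF-1 also keeps mouse macrophages dividing, and LPS is known to halt that division.

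Log ratios are given after each array's median over all probes was set to 0, and their logarithm has an unknown base, so no fold change is given and 1 unit means 1 unit of the deposited log ratio. Positive values were read as higher in macrophages than in embryo, a direction that is likely and that no label states. At 7 h the 14 measured macrophage lineage markers had a median level of 0.50 and the 47 measured embryonic tissue genes one of -0.48. At 21 h these medians were 0.26 and -0.45, although 11 of the 14 macrophage markers were higher at 21 h than at 7 h. Were the true direction the opposite, each rise given here would be a fall and each fall a rise. Values of different genes are not set against each other as levels, since each is relative to its own amount in embryo RNA.

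The measure of error was the disagreement between probes. In the 3034 genes with more than 1 probe, the SD of a single probe's step (from the spread of the gap between a gene's 2 probes, over the square root of 2) was 0.163 units. A gene was called, and is said to have risen or fallen, when its step reached 2 of these probe SDs, 0.326 units. The SD of the step over all genes was 0.163 units too, and the steps of 2 probes of a gene correlated at only 0.20 across these genes. Most steps of single genes were therefore no larger than the disagreement between probes. The probe SD also holds no spread between cultures. At the threshold, Marco (step 0.3258) and Eif4b (0.3262) lay just inside, Scaf11 (0.3220) and Eaf2 (0.3218) just outside. On the falling side Ino80 (-0.3261) and Mlycd (-0.3264) lay just inside, and Pim1 and Dram1 (both -0.3256) just outside.

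By this rule 236 genes (2.72% of all) rose from 7 h to 21 h and 219 (2.52%) fell. The median step of all genes was 0.02 units, and 4961 of 8692 were above 0. Other scalings of the arrays moved this balance: 301 rose and 179 fell without centring, and 167 rose and 272 fell after cyclic loess. No gene rose by 1 unit or more (0.0%), and 2 genes fell by that much (0.023%). These were Il1a, which encodes interleukin-1 alpha, and Rnf113a2, a gene for a RING finger protein. Rnf113a2 had -0.07, -0.13, -0.34, -0.06 and -1.98 at 0, 0.5, 2, 7 and 21 h, so its fall rests on 1 probe on the 21 h array alone. The 7 h and 21 h arrays were the most alike of the series, with a correlation of 0.84 over probes, and the next closest pair had 0.72.

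Promoter sequences are shown for 6 genes picked as examples of the patterns described below. Cxcl10 and Tlr2 fell, Gbp2 persisted, Saa3 rose, and Cdk1 and Mki67, of the cell cycle, fell. The sequences are the 250 bases before the annotated start, from RefSeq on build GRCm38.p6, written 5′ to 3′ along the gene. Capitals mark matches on either strand to 4 patterns: GGGNNNTTCC, bound by NF-kappaB; GAAANNGAAA, the interferon-stimulated response element (ISRE); TTGCNNAA, bound by C/EBP proteins; and TTTGAA, the core of the cell cycle homology region (CHR).
Cxcl10: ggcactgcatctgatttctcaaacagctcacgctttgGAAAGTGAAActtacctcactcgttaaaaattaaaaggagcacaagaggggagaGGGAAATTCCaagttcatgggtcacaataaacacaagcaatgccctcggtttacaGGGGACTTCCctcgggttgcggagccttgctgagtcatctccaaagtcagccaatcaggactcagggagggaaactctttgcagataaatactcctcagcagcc
Tlr2: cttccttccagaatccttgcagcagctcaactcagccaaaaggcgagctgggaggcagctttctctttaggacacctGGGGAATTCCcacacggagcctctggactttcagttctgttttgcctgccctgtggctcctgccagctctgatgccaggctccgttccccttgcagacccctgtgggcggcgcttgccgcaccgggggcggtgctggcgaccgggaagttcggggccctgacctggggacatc
Gbp2: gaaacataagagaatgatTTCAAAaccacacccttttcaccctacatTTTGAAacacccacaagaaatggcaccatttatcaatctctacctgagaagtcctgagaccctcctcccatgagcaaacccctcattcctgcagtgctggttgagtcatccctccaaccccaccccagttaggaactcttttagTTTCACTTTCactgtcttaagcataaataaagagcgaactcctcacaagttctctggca
Saa3: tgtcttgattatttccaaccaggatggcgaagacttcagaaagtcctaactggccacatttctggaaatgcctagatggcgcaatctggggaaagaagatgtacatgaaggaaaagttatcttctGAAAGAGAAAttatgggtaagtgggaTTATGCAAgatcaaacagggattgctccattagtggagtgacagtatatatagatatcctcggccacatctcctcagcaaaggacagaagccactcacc
Cdk1: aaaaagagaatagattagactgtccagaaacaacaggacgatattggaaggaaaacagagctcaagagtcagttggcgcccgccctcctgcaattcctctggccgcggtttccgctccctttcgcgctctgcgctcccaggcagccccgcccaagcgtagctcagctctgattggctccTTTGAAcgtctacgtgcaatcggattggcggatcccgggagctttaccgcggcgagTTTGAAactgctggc
Mki67: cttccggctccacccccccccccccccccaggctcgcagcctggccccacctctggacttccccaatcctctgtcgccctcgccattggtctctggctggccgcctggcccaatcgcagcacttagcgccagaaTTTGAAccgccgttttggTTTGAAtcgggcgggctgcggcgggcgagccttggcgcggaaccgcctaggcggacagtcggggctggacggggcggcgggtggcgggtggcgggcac
Their positions are chr5:92348890-92349139 (minus strand) for Cxcl10, chr3:83841609-83841858 (minus) for Tlr2, chr3:142620413-142620662 (plus) for Gbp2, chr7:46715677-46715926 (minus) for Saa3, chr10:69352913-69353162 (minus) for Cdk1 and chr7:135716380-135716629 (minus) for Mki67. The Cxcl10 window held GGGNNNTTCC 159 and 104 bases before the start and GAAANNGAAA 213 bases before it. The Tlr2 window held GGGNNNTTCC at 173 bases, the Gbp2 window GAAANNGAAA at 59 bases and TTTGAA at 232 and 203 bases, and the Saa3 window GAAANNGAAA at 125 bases and TTGCNNAA at 99 bases. TTTGAA stood 71 and 15 bases before the start of Cdk1 and 116 and 98 bases before that of Mki67. No 2 of these matches overlapped. Of the 7001 measured genes with a promoter in the table, 4.69% held GGGNNNTTCC, 2.46% GAAANNGAAA, 7.79% TTGCNNAA and 11.5% TTTGAA in this window. A match describes letters and not binding.

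Induced genes were chosen by their average over the arrays of 7 h and 21 h, minus the 0 h array, at 2 of the probe SDs of that quantity or more (0.435 units). This choice weighs both arrays equally and so favours neither a fall nor a rise. It gave 319 genes (3.67%), of which 256 persisted (a step under 2 probe SD in either direction), 28 declined and 35 rose. Their median change from 0 h was 0.54 units at 7 h and 0.58 at 21 h, and their median step was 0.04 units. Of the induced genes 8.78% declined and 11.0% rose, beside 2.52% and 2.72% of all genes. The choice uses the arrays of the step, so these shares are a description. Choosing by the 7 h array alone (270 genes, 3.11%) gave 56 that declined and 13 that rose. Choosing by the 21 h array alone (351 genes, 4.04%) gave 8 and 73. The balance of decline and late rise thus followed the array used to choose the genes.

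**Figure D1:**
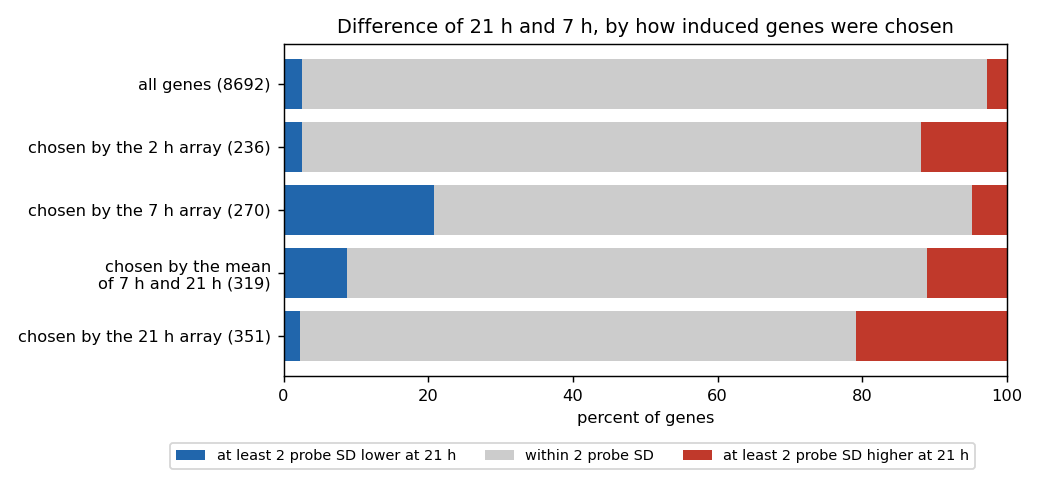
Share of genes (percent, horizontal axis) that were at least 2 probe SD lower at 21 h than at 7 h (blue), within 2 probe SD (grey) or at least 2 probe SD higher (red), for all genes and for induced genes chosen in 4 ways, with their number in brackets. The blue share is widest for genes chosen by the 7 h array (56 of 270) and the red share for genes chosen by the 21 h array (73 of 351).

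The 2 h array has no part in the step, so genes chosen on it give a view of early-induced genes that the step did not select. At 2 h, 236 genes (2.72%) were at least 1 unit above 0 h, with a median change of 1.30 units. Their median change was 0.17 units at 7 h and 0.33 at 21 h, and their median step was 0.10 units. From 7 h to 21 h 6 of them fell (2.54%, beside 2.52% of all genes), 28 rose (11.9%, beside 2.72%) and 202 did neither. Each of the 6 and of the 28 rests on a single probe. The 39 genes of this choice with more than 1 probe were all among the 202. Most of the distance from the 2 h value was therefore already gone at 7 h. The 2 h array had the widest values of the series, with a centred SD of 0.53 against 0.32 at 7 h and 0.33 at 21 h. The changes at 2 h of 2 probes of a gene correlated at 0.10 across genes. How far that spread set the choice of these genes was not tested. With quantile normalization 3 of the genes so chosen fell, 4 rose and 65 did neither.

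Both at 2 h and in the late mean 62 genes were induced, and 53 of them (85.5%) had a step within 2 probe SD, as did 94.8% of all genes. The 4 that declined were Il1a, Ccrl2, Exosc4 and 2310047D07Rik, and the 5 that rose were Rprm, Cxcl15, Xrcc5, Adamdec1 and Cyp2j6. Exosc4, 2310047D07Rik and the 5 that rose are named here after their values were seen.

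**Figure D2:**
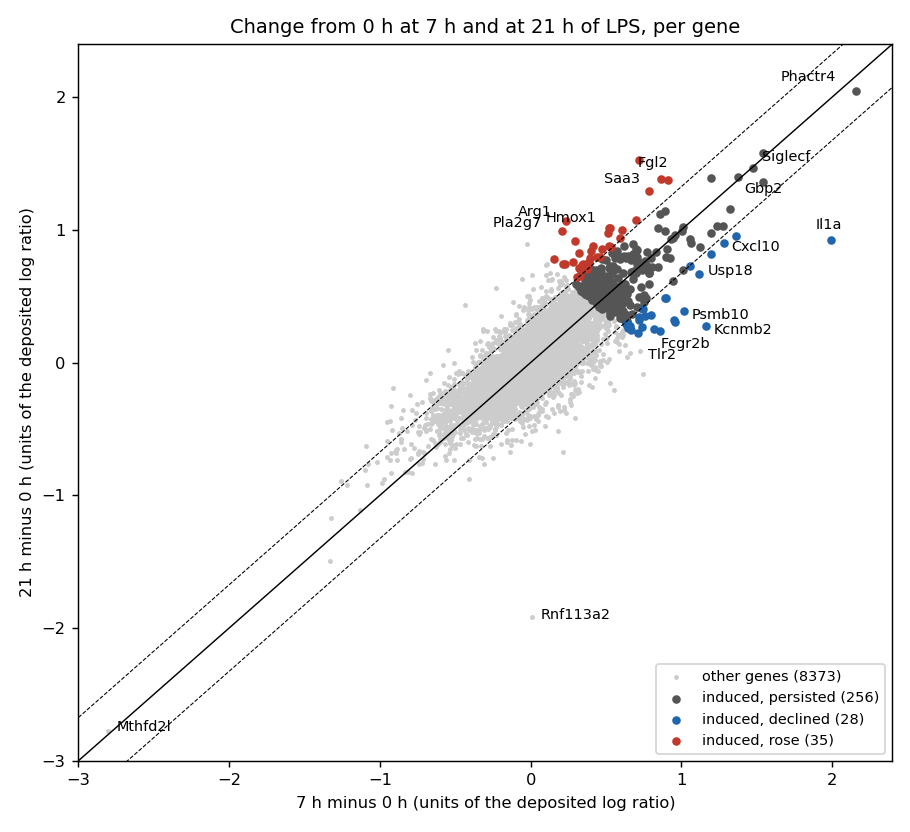
Change from 0 h at 7 h (horizontal axis) and at 21 h (vertical axis) for 8692 genes, in units of the deposited log ratio. Induced genes are coloured by what their step did: 256 persisted (dark grey), 28 declined (blue) and 35 rose (red). The solid line marks equal change and the dashed lines a step of 2 probe SD, 0.326 units. Il1a lies far below the lines, and Arg1, Pla2g7 and Fgl2 above them.

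Among the declining genes were the inflammatory cytokine Il1a, the chemokine Cxcl10 and the chemerin-binding receptor Ccrl2. In the order of 0, 0.5, 2, 7 and 21 h, Il1a had log ratios of 0.03, 0.07, 1.24, 2.02 and 0.96. It was highest at 7 h and fell by 1.06 units, the most of any induced gene, yet at 21 h it still lay 0.93 units above 0 h. Cxcl10, a ligand that draws CXCR3-bearing T cells and a classic product of interferon signalling, had 0.42, 0.31, 0.99, 1.70 and 1.32 in the same order of times. Its step was -0.38, and the 21 h value stayed above those at 0, 0.5 and 2 h. Ccrl2 had -0.28, 1.40, 1.05, 1.08 and 0.68, with a step of -0.40, so it was high from 0.5 h on and lowest, among the LPS arrays, at 21 h.

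Of the 20 genes whose late mean was at least 1 unit above 0 h (0.23% of all), 4 declined, 12 persisted and 4 rose. Those that declined were Il1a, Cxcl10, Ccrl2 and Usp18. Usp18, which removes the ubiquitin-like ISG15 and restrains the interferon receptor, had 0.08, 0.18, 0.41, 1.27 and 0.90, a step of -0.37. These 4 genes were measured by 1 probe each, so their steps have no second probe behind them. All 4 remained at least 0.82 units above 0 h at 21 h, so they declined in part.

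Other genes fell to within 2 probe SD of their 0 h value. The rule for them uses the arrays of the step, so their steps are a description. By rule, 48 genes (0.552%) were up at 7 h by 2 probe SD or more (0.462 units), fell by the step, and at 21 h were within 2 probe SD (0.467 units) of 0 h. Tlr2, the receptor for bacterial lipoproteins, had 0.01, -0.06, 0.02, 0.73 and 0.10, so that only the 7 h array stood out. Fcgr2b, the inhibitory Fc gamma receptor, had the same shape with -0.13, -0.28, 0.06, 0.73 and 0.11. Irf5, a transcription factor downstream of Toll-like receptors, had 0.51, 0.34, 1.02, 1.03 and 0.35, high at 2 h and 7 h and back at its resting level at 21 h. Psmb10, an inducible catalytic subunit of the immunoproteasome, had -0.09, -0.05, 0.57, 0.93 and 0.30. At 21 h it was still 0.39 units above 0 h. The steps of these 4 genes were -0.64, -0.62, -0.68 and -0.63, each from 1 probe.

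The same class held Plek, Il18, Kcnmb2, Naalad2, Fcnb and Stmn3. Plek encodes pleckstrin, a substrate of protein kinase C in blood cells, and its values were 0.00, 0.10, 0.70, 0.96 and 0.30. Both of its probes fell, by 0.98 and 0.32 units. Il18, the interferon-gamma-inducing cytokine of the interleukin-1 family, had 0.54 at 7 h and 0.16 at 21 h, a step of -0.38. Kcnmb2, a subunit of a calcium-activated potassium channel, fell by 0.89 units, Naalad2 by 0.63 and Stmn3, of the stathmin family, by 0.76. Fcnb, a ficolin lectin of myeloid cells, fell by 0.83 units, from 0.44 to -0.39. These 4 had 1 probe each. Pnpt1, a mitochondrial RNA exonuclease, and Otud6b, a deubiquitinase, each had a step of -0.49 from 2 probes. The probes of Pnpt1 were at -0.62 and -0.36. Those of Otud6b were at -0.85 and -0.12, so 1 probe carried most of its step.

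Other induced genes had nearly the same value at 7 h and 21 h, Gbp2, Rsad2, Fcgr1 and Siglecf among them. Gbp2, a guanylate-binding GTPase that attacks the vacuoles of pathogens, had 0.55, 0.53, 2.82, 1.93 and 1.95, so the 7 h and 21 h arrays differed by 0.02 units. Rsad2, which encodes the antiviral enzyme viperin, had 0.96, 0.20, 1.76, 2.02 and 1.89, with steps of -0.11 and -0.14 for its 2 probes. These probes disagreed at 2 h, at 2.80 and 0.71, and were close at 7 h, at 1.98 and 2.06. Fcgr1, the high-affinity Fc gamma receptor, had 1.16, 1.08, 3.46, 1.92 and 1.92. Each of these genes had most of its change in place at 7 h and held it. Gbp2, Fcgr1 and 1 probe of Rsad2 had been higher still at 2 h. Siglecf, a sialic-acid-binding lectin, had -0.29, 0.71, 1.96, 1.19 and 1.18 and so stayed level from 7 h on.

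Irf1, the transcription factor behind many interferon-gamma targets, went from 0.44 to 0.48. Sod2, the mitochondrial superoxide dismutase, went from 0.83 to 0.74, and the steps of its 4 probes ran from -0.25 to 0.01. Cfb, complement factor B, had 0.52 and 0.53, with probe steps of 0.10 and -0.09, and Ctsc, a cathepsin that activates serine proteases, had 1.22 and 1.19. Il1rn, the interleukin-1 receptor antagonist, had 0.94 at 7 h and 0.69 at 21 h, a step of -0.25 that did not reach 2 probe SD. Its agonist partner Il1a fell by 1.06 units, but the difference between these steps was not tested. Serpinb2, a protease inhibitor, had 0.95 and 0.74. Hif1a, the oxygen-sensing transcription factor, had 0.53 and 0.69, and 5 of its 6 probes lay above 0.

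For some persisting genes the induction itself leaned on the 0 h array. Phactr4, a regulator of protein phosphatase 1, had -1.44 without LPS and then 0.21, 1.65, 0.72 and 0.61. Its change of 2.16 units at 7 h is the largest of these genes, and much of it came from the low 0 h value. Abcb1a, a drug efflux pump, was at 0.08 at 0 h on 1 probe and at -1.46 on the other, while its 2 probes were close at 7 h (0.57 and 0.69) and at 21 h (0.43 and 0.51). Their steps were -0.15 and -0.18. With the 0.5 h array as the baseline in place of 0 h, 10 induced genes declined, 43 persisted and 12 rose.

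**Figure D3:**
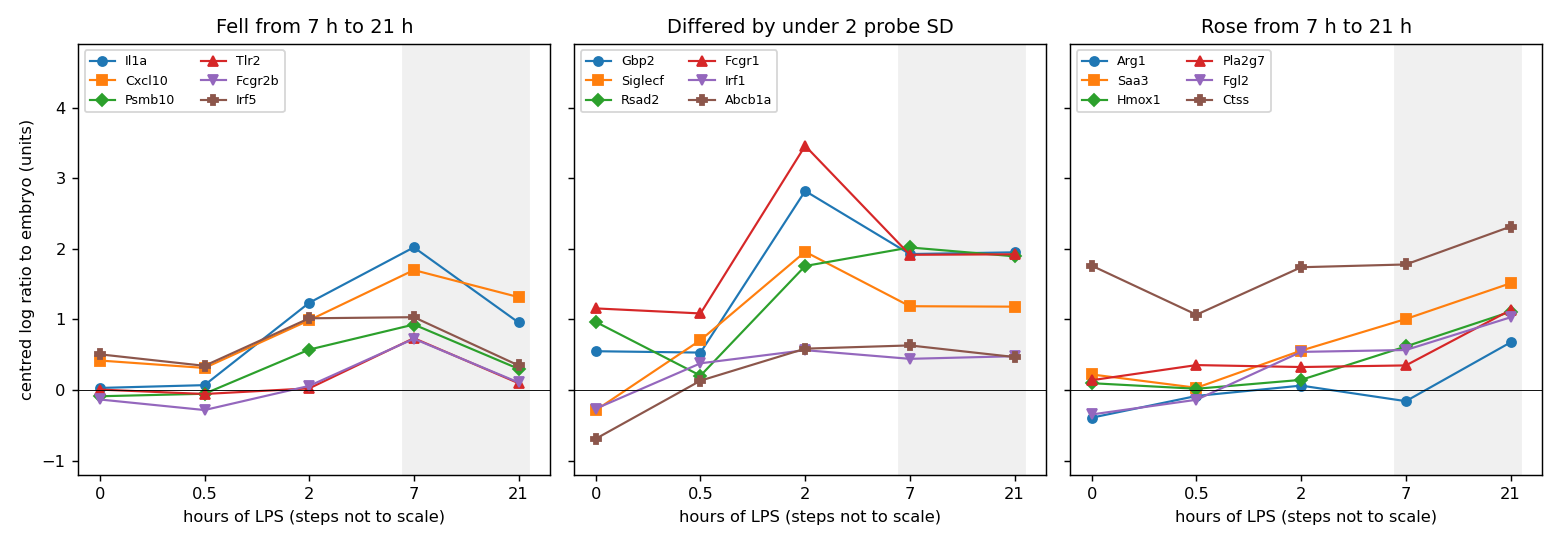
Centred log ratio to embryo (vertical axis, units) on the 5 arrays (horizontal axis, hours of LPS, not to scale) for 6 genes that fell from 7 h to 21 h, 6 that differed by under 2 probe SD and 6 that rose. The 7 h and 21 h arrays are shaded, and each point is 1 array. Il1a peaks at 7 h and is at 0.96 at 21 h, Gbp2 and Fcgr1 are level across the shaded arrays, and Arg1 leaves its earlier range only at 21 h, at 0.67.

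Arg1 and Pla2g7 were among the genes with the 12 highest steps. Arg1, arginase 1, turns arginine into ornithine and competes with nitric oxide synthase for it. It had -0.39, -0.08, 0.06, -0.16 and 0.67, a step of 0.83, and the 21 h array alone stood above the others. Arg2, the mitochondrial arginase, had 0.39 at 7 h and 0.53 at 21 h, a step of 0.14 that was not called. Pla2g7, which breaks down platelet-activating factor, had 0.14, 0.35, 0.33, 0.35 and 1.13. Its step was 0.78, and the other 4 arrays lay between 0.14 and 0.35. Arg1 and Pla2g7 were each measured by 1 probe.

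Saa3 and Hmox1 were up at 7 h and rose further. Saa3, the serum amyloid A made by macrophages, had 0.22, 0.03, 0.56, 1.01 and 1.51, a step of 0.51. Hmox1, haem oxygenase, which breaks haem down to biliverdin, iron and carbon monoxide, had 0.10, 0.02, 0.14, 0.62 and 1.11, a step of 0.49. Fgl2, a secreted or membrane-bound fibrinogen-like protein, had -0.35, -0.14, 0.54, 0.57 and 1.03, a step of 0.46. All 3 were highest at 21 h. Each rests on 1 probe.

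Prdx1 and Fth1, each with several probes, rose too. Prdx1, a peroxiredoxin that reduces hydrogen peroxide, had 0.38, 0.39, 0.43, 0.51 and 0.92, a change from 0 h of 0.13 units at 7 h and 0.54 at 21 h. Of its 8 probes 7 rose from 7 h to 21 h, by 0.25 to 0.57 units, and 1 was at -0.04. Fth1, the ferritin heavy chain, had 0.42, 0.38, 0.40, 0.52 and 0.87, a step of 0.35, with 4 probe steps between 0.04 and 0.57. The late-rise rule (within 2 probe SD of 0 h at 7 h, then a step and a change at 21 h of at least 2 probe SD) gave 60 genes (0.69%), Prdx1 among them. After cyclic loess 36 genes met it. This rule too uses the arrays of the step, so the steps of its genes are a description.

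Proteases and a lipid carrier of the lysosome rose too. Ctss, the cathepsin that trims the class II invariant chain, had 1.76, 1.07, 1.74, 1.78 and 2.31, a step of 0.54 from 1 probe. Ctsl, cathepsin L, had 0.41, 0.40, 0.31, 0.23 and 0.66, and its 3 probes rose by 0.33 to 0.56. Ctsh, an aminopeptidase of the same family, had -0.14 at 7 h and 0.27 at 21 h from 1 probe. Npc2, which carries cholesterol out of the lysosome, had 0.61 and 0.95, and its 2 probes rose by 0.26 and 0.41. These 4 genes are the members of the list of 32 measured lysosomal genes that rose (beside 2.72% of all genes). The other 28 stayed within 2 probe SD, none fell, and the list's median step was 0.03 units beside 0.02 for all genes. The lysosomal rise therefore lay in these few members and was not shared by the list.

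Further rises with probes of the same sign were those of Plac8 (step 0.49, probes at 0.38 and 0.61), a small cysteine-rich protein of myeloid cells, and Ms4a6b (0.38, probes at 0.37 and 0.38), a membrane-spanning protein. The highest step of all genes was that of Pitpnb, a phosphatidylinositol transfer protein, which had -1.69, -1.41, -1.01, -1.72 and -0.80, a step of 0.92. It was below the array median on every array. Among the 12 highest steps were also those of Cmtm8 (0.86), 1810009J06Rik (0.81), the transcription factor Atf2 (0.79), S100a14 (0.72), the steroid dehydrogenase Hsd3b6 (0.69) and the cell-death gene Cideb (0.64). These had 1 probe each. Cideb had 0.08, 3.64, 1.68, -0.47 and 0.17, and so was far above its late values on both earlier LPS arrays.

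**Figure D4:**
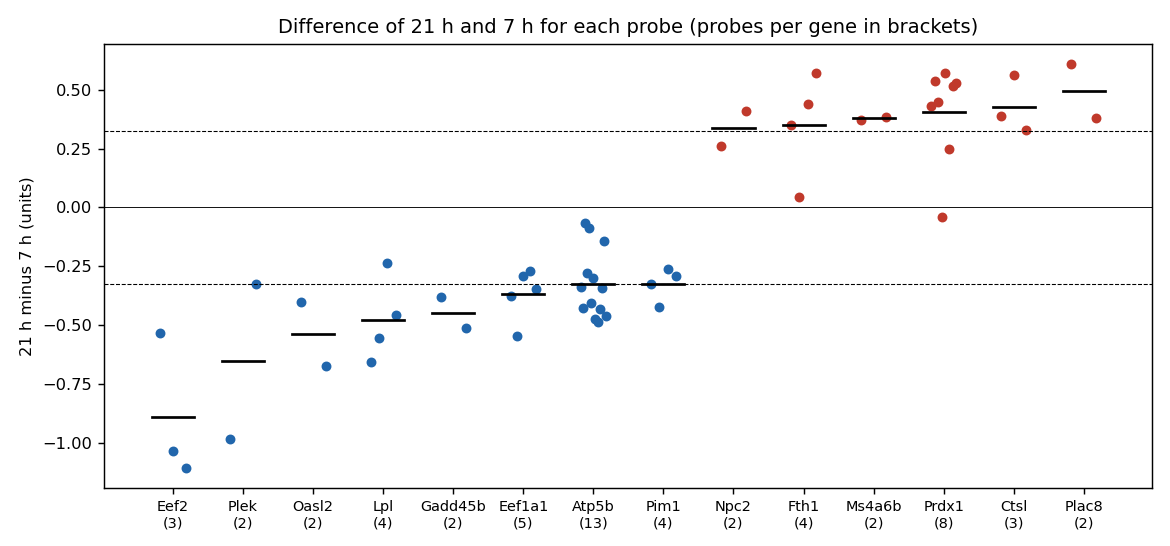
Step (21 h minus 7 h, units, vertical axis) of every probe of 14 genes with more than 1 probe, with the gene mean as a bar and the number of probes in brackets. Dashed lines mark 2 probe SD. The probes of Eef2, Plek, Oasl2, Lpl, Gadd45b, Eef1a1 and Atp5b all lie below 0 and their means past the line, Pim1 lies just short of it, and of the 8 probes of Prdx1 all but 1 lie above 0.

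The steps of different probes of a gene agreed only in part. Where the probe listed before the others of its gene had risen by 2 probe SD, in 111 genes, the next probe had a median step of 0.08 units and the same sign in 74 (66.7%). Where it had fallen by that much, in 108 genes, the next probe had a median of -0.10 and the same sign in 72 (66.7%). Over all 3034 genes the share of the same sign was 58.0%. Of the called genes, 29 of the 236 that rose and 40 of the 219 that fell had more than 1 probe. All probes had the same sign in 26 of those 29 and in all 40 that fell, beside 1405 of all 3034 genes. A call uses the mean of these same probes and so favours a shared sign, and these counts are a description. The other 207 and 179 called genes rest on a single probe.

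The gene lists give the step by pathway. The shares to set beside the counts of each list are 2.72% of all genes that rose and 2.52% that fell. The cytokine list, of which 7 genes were measured, had a median step of -0.18. Il1a and Il18 fell and none rose. Csf1, the macrophage growth factor, was at 0.34 at 7 h and 0.17 at 21 h. Il1a and Il18 have 1 probe each, and only Mif (0.07) and Vegfa (0.03) of the list have more; both are named here after their values were seen. Of 13 measured chemokines and receptors Cxcl10 and Ccrl2 fell and Cxcl12, a stromal chemokine, rose. The list's median of 0.08 went to -0.01 when drift along the probe numbers was removed.

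NF-kappaB feedback and survival genes had the lowest list median, -0.19 units over 11 measured genes. Of these 10 lay below 0, beside 3731 of all 8692 genes, and only Tlr2 was called, beside 2.52% of all genes that fell. The median stayed below 0, from -0.31 to -0.17, in each of 8 settings of scaling, centring and filtering. Nfkbia, which encodes the inhibitor I-kappaB alpha, had -0.05, 0.59, 0.53, 0.71 and 0.41, a step of -0.30 from 1 probe. It was raised on all 4 LPS arrays and lowest of them at 21 h. Pim1, a survival kinase, had -0.04, 0.33, 0.58, 0.90 and 0.57, and its 4 probes were between -0.42 and -0.26. Birc3, an inhibitor of apoptosis, had 0.76 and 0.47, a step of -0.28. The promoter window of 2 of the 10 genes with a sequence held GGGNNNTTCC (20%, beside 4.69% of measured genes).

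Of 20 measured antiviral interferon effectors 3 fell (beside 2.52% of all genes), 1 rose (beside 2.72%) and 16 did neither. Their median step of -0.12 stayed below 0 in each of the 8 settings, from -0.19 to -0.03. Oasl2, of the 2′-5′-oligoadenylate synthetase family, had 1.12, 0.21, 0.77, 1.43 and 0.89, and both of its probes fell, by 0.67 and 0.40 units. It was high without LPS as well. Parp9, a mono-ADP-ribosyltransferase partner in interferon signalling, had 0.46, 1.13, 1.13, 0.89 and 0.40, a step of -0.49 that brought it back to its 0 h value. Usp18 was the other that fell, and Ifi27 rose from 0.07 to 0.40. The window held GAAANNGAAA in 4 of the 13 genes of this list with a promoter (30.8%, beside 2.46% of measured genes).

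The 6 measured interferon-inducible GTPases and Ifi200 genes had a median step of -0.10 and none was called. Igtp, a GTPase of the IRG family and the 1 gene of the list with more than 1 probe, came closest, with 0.90 at 7 h and 0.57 at 21 h. Of 11 interferon regulatory factors, STATs and receptors only Irf5 was called, and the median step was 0.00. Irf7, the amplifier of type I interferon, had 1.09 and 0.96. Of 14 genes of MHC class I and the immunoproteasome only Psmb10 fell, with a list median of -0.04. Psmb9, its partner subunit, had 1.05 and 0.94, and Tap2, of the peptide transporter, had 0.50 and 0.19, a step of -0.31.

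None of 12 measured negative feedback genes of Toll-like receptor and cytokine signalling was called, and their median step was 0.12. That median was above 0 in each of the 8 settings, from 0.04 to 0.19, beside 0.02 for all genes. It was lowest without the lowest 10% of mean log ratio. Socs2, a suppressor of cytokine signalling, had 0.24 at 7 h and 0.53 at 21 h, and Cyld, a deubiquitinase that restrains NF-kappaB, had 0.27 and 0.55. Of 19 immediate-early genes only Gadd45b, a stress-response gene, fell. It had -0.40, 0.11, 0.41, 0.71 and 0.27, and its probes fell by 0.51 and 0.38 units. Fos, a subunit of the AP-1 transcription factor, had 1.02 at 0.5 h and was at 0.17 and 0.11 on the late arrays. Junb, its partner, had 0.57 and 0.32.

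Of 13 acute-phase, complement and secreted effectors Saa3 and Marco rose (beside 2.72% of all genes). Plaur, the urokinase receptor, fell from 0.82 to 0.36 (beside 2.52% of all genes that fell). Marco, a scavenger receptor, had -0.01, -0.10, -0.18, -0.30 and 0.02, so its rise was a return to the 0 h level. Of 12 genes of arginine metabolism and alternative activation only Arg1 was called. Of 24 genes of oxidative stress and haem, Hmox1, Prdx1 and Fth1 rose (beside 2.72% of all genes). Mt2, a metallothionein, fell by 0.33 units (beside 2.52% of all genes that fell). The list's median step of 0.04 was close to that of all genes.

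Genes of eicosanoid metabolism went both ways. Pla2g4a, the cytosolic phospholipase that frees arachidonic acid, had 0.73, 1.57, 1.73, 1.03 and 0.32, a step of -0.71. It was high at 0.5 h and 2 h and lowest at 21 h. Pla2g7 was the member of the list of 11 that rose. Ptgs2, the inducible cyclooxygenase, had 0.03 and -0.09 on the late arrays, -0.35 at 2 h and -0.04 at 0 h, so its probe showed no induction on any array. Of 21 genes of cholesterol efflux and lipid handling Npc2 rose and Lpl, lipoprotein lipase, fell, with all 4 of its probes lower, by 0.24 to 0.66 units. Of 21 genes of hypoxia and glycolysis Bnip3, a mitophagy receptor, rose by 0.34 and Pfkl, a phosphofructokinase, fell by 0.41.

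Of 10 measured Fc and phagocytic receptors 2 fell, Tlr2 and Fcgr2b (beside 2.52% of all genes). Clec4n and Marco, the latter just inside the threshold, rose (beside 2.72% of all genes). Clec4n, the lectin Dectin-2, had 0.77, 1.84, 0.71, 0.19 and 0.61, so it was lower at 7 h than on any other array. Ctss was the gene called in the list of 8 for MHC class II. Cd74, the invariant chain, had 0.22 and 0.02, and H2-Eb1, a class II beta chain, had 0.25 and 0.07.

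**Figure D5:**
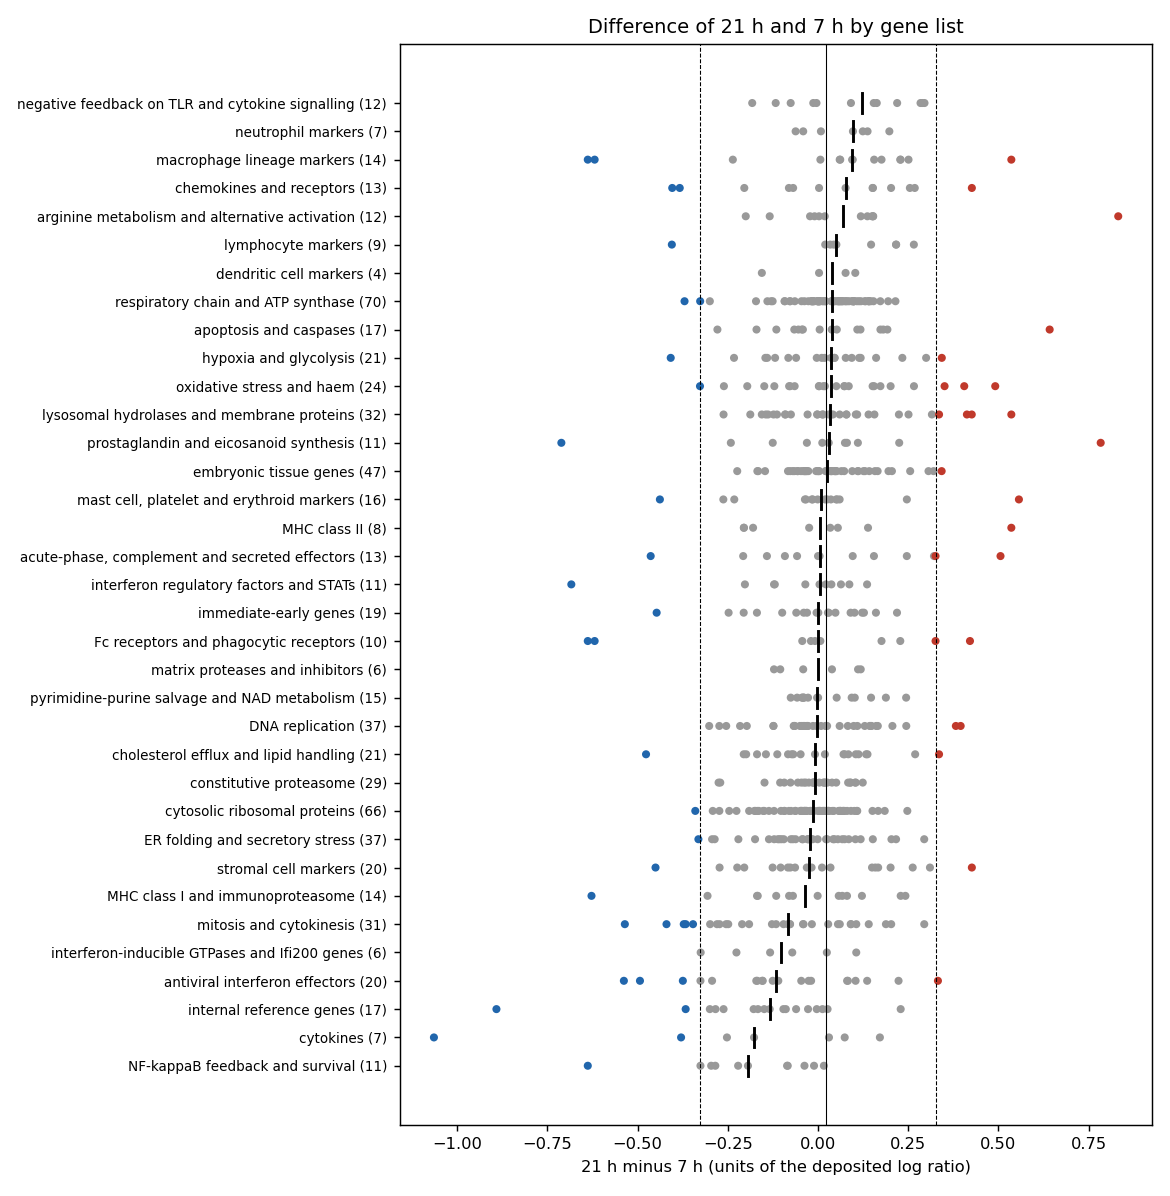
Step (21 h minus 7 h, units, horizontal axis) of the measured genes of 35 lists, with their number in brackets, ordered by list median (short bars). Each point is a gene, blue where it fell and red where it rose by at least 2 probe SD (dashed lines), and the solid line is the median of all genes, 0.02. The medians run from -0.19 for NF-kappaB feedback genes to 0.12 for negative feedback genes, all inside the dashed lines.

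Repressed genes, chosen as the induced ones with the sign turned, numbered 252 (2.9%). Of these 216 persisted (85.7%, beside 94.8% of all genes within 2 probe SD), 28 recovered toward 0 h (11.1%, beside 2.72% that rose) and 8 fell further (3.17%, beside 2.52% that fell). Here too the choice uses the arrays of the step, so the shares are a description. Each of the 28 that recovered rests on a single probe. The median step of the repressed genes was 0.10 units. Icam2, an adhesion molecule, had 1.01 at 0 h and -0.18, -0.32, -0.12 and -0.10 afterwards, and so was high on the 0 h array alone. Mthfd2l, a mitochondrial folate enzyme, had 2.63 at 0 h and between -0.17 and 0.15 on the 4 LPS arrays, so the repression of both rests on that array, with 1 probe each. Without centring 53 recovered and 364 persisted, and with drift along the probe numbers removed 14 recovered and 143 persisted.

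Of 31 measured genes of mitosis and cytokinesis 5 fell (beside 2.52% of all genes), none rose and 26 did neither. Below 0 lay 21 of them, beside 3731 of all 8692 genes, and the median step of -0.08 stayed below 0 in each of the 8 settings, from -0.11 to -0.06. Mki67, the proliferation marker of the chromosome surface, had 0.26, 0.27, -0.05, 0.13 and -0.41, a step of -0.54. Cdk1, the kinase that starts mitosis, had 0.23, 0.28, -0.07, 0.16 and -0.21, a step of -0.37. Both were lowest at 21 h and had been lower at 2 h than at 7 h. Incenp, of the chromosomal passenger complex, fell by 0.42 units and Tpx2, a spindle assembly factor, by 0.37. Ccna2, cyclin A2, fell by 0.35, with 2 probes at -0.42 and -0.28, and is named here after its values were seen. In the promoter window TTTGAA stood in 12 of the 25 genes of this list with a sequence (48%, beside 11.5% of measured genes).

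Of 37 measured DNA replication genes 2 rose (beside 2.72% of all genes), none fell (beside 2.52%), and the median step was 0.00. Chek1, the checkpoint kinase, had 0.19, 0.04, -0.36, -0.57 and -0.19, a step of 0.38 that undid part of its fall at 7 h. Rfc1, of the clamp loader, rose from -0.06 to 0.33. Mcm4, of the replicative helicase, had -0.32 and -0.21, both below its 0 h value of 0.31. Whether the steps of the mitosis and replication lists differ was not tested. In a bulk culture fewer dividing cells and less of these transcripts per cell cannot be told apart.

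Of 37 measured genes of protein folding and secretory stress in the endoplasmic reticulum only Serp1, which steadies new membrane proteins under stress, was called. It had -0.27, -0.37, 0.23, 0.79 and 0.46, and its 2 probes fell by 0.44 and 0.22 units. Hspa5, the chaperone BiP, had 0.45 at 7 h and 0.16 at 21 h, a step of -0.29 that was not called. None of 29 constitutive proteasome genes was called.

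Some housekeeping genes with several probes fell. Eef2, which moves the ribosome along the transcript, had -0.34, -0.74, -0.93, -0.13 and -1.02, and its 3 probes fell by 1.10, 1.03 and 0.53 units. It was lower at 0.5 h, 2 h and 21 h than at 0 h and 7 h. Eef1a1, which brings transfer RNA to the ribosome, fell by 0.37 units, with all 5 probes between -0.54 and -0.27, and Eif5a fell by 0.49. Atp5b, the catalytic subunit of ATP synthase, fell by 0.33, with all 13 probes below 0, and Atp5a1 by 0.37. For Atp5b the 7 h array was the odd one, at -0.12 beside -0.46 to -0.40 on the other 4. Eef1a1 (-0.21, -0.40, -0.38, -0.03 and -0.40) and Atp5a1 (-0.29, -0.43, -0.49, -0.07 and -0.44) were highest at 7 h too. Eif5a had 0.10, -0.44, -0.50, -0.03 and -0.53. Of 66 measured ribosomal protein genes only Rpl3 was called, and of 70 respiratory chain genes only Atp5a1 and Atp5b. The 17 genes often used as internal references, Eef2 and Eef1a1 among them, had a median step of -0.13, below 0 in each of the 8 settings and beside 0.02 for all genes.

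Few markers of other cells that a marrow culture could hold were called. Of 7 neutrophil markers 5 lay above 0 (median step 0.10), beside 4961 of 8692 genes, and of 4 dendritic cell markers 3 did (0.04). None of either list was called, and their levels ran from -0.36 to 0.28 and from -0.28 to 0.14 at 7 h, and from -0.19 to 0.38 and from -0.18 to 0.22 at 21 h. Of 9 lymphocyte markers 8 lay above 0 without being called, with a list median of 0.05, and Cd79b alone lay below and fell, by 0.40 units. The medians of the neutrophil and lymphocyte lists were above 0 in each of the 8 settings, at the lowest 0.05 and 0.01. Of 20 stromal markers Cxcl12 rose and Sparc, a matrix protein, fell, and of 16 mast cell, platelet and erythroid markers Mcpt4 rose and Klf1 fell. Of the 14 macrophage lineage markers Ctss rose, Tlr2 and Fcgr2b fell and 11 did neither, with a median step of 0.10. Called or not, 11 of the 14 had a step above 0 and 3 below. Because these values are ratios to whole embryo, which holds blood and stroma itself, a low ratio does not show that a marker is absent. Their part in the steps given above was not tested.

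Where a probe lay in the numbering of the array also moved with the step. Among probes 14001 to 16000, 37 had risen and 130 fallen by 2 probe SD, and among probes 18001 to 19828, 115 had risen and 43 fallen. The sources used here do not say whether this order follows the layout of the slide, and it was not tested whether it had a part in the steps. With the local median along the probe numbers removed, 198 genes rose and 249 fell, and the steps of all 212 named genes moved by less than 1 probe SD.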

How the data were processed

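Each of 5 arrays with 2 channels compared macrophage RNA with embryo RNA, and the labels give 1 array per time. For every probe the authors deposited a single signed log ratio, on a log scale that can fall below 0. The sources used here do not give its base, its direction or how it was normalized, and signal over background was not used. Of 19828 probes, 14759 had 1 gene in the platform annotation, 170 had several and 4899 had none listed; 14628 of the named probes matched a RefSeq gene and no symbol changed. Each array's median was set to 0 over the 18391 probes measured on every array, and the 13876 named ones among them were averaged to 8692 genes.

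Genes were called at 2 probe SD of the step, of the late mean or of the change at 7 h or 21 h; no test was run, since there was 1 array per time. The genes and lists were chosen with earlier results of these data known. Named genes were the 12 highest and 12 lowest steps, the 10 highest and lowest with all of at least 2 probes of the same sign, the 20 induced and 10 repressed genes of largest late mean, the 10 largest steps of the late-rise and return classes, the 8 highest at 2 h, up to 4 members of each of 36 lists and a list followed over time. Not every such gene is printed. The counting was checked on simulated data.

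Alternatives were no centring, quantile normalization, cyclic loess, scaling to 1 deviation, subtracting the local median of 201 neighbouring probe numbers, keeping genes with several probes, leaving out the lowest 10% of mean log ratio, probes counted singly, other thresholds, other baselines, and induced genes chosen by 1 array. Python 3.11.15 (numpy 2.4.6, pandas 2.3.3, matplotlib 3.10.9) and R 4.3.3 (limma 3.58.1) were used.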

Additional observations from a re-analysis of the deposited data

How the results depend on the processing

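All 87 named genes past 2 probe SD kept the sign of their step under every alternative that measured them. They were chosen for steps of that size and the alternatives reuse the same arrays, so a kept sign adds little support. Of 1518 values of named genes 68 moved by 1 probe SD or more. Counts moved further. Of 236 genes that rose and 219 that fell, 29 and 40 were left among genes with more than 1 probe, 46 and 58 at 3 probe SD, 399 and 348 with the SD divided by the root of the number of probes, and 481 and 521 with probes counted singly. At 1 unit, 0 rose and 2 fell; these were 2 and 7 after quantile normalization, 1 and 7 for single probes, 40 and 47 at 0.5 units, and 1 or 0 fell without the lowest 10% of genes or with several probes only. Of the induced genes 28 declined, 256 persisted and 35 rose. These became 17 and 154 (declined, persisted) without centring, 44 declined after quantile normalization, 22 rose after cyclic loess, 5, 49 and 3 with several probes, 10, 43 and 12 with the 0.5 h baseline, 18, 99 and 21 with the mean of 0 h and 0.5 h, and 3, 80 and 4 at 3 probe SD. Choosing by the 7 h array gave 56 that declined and 13 that rose, and by the 21 h array 8 and 73. Of the genes induced at 2 h, 6 declined, 202 persisted and 28 rose. These were 3, 65 and 4 after quantile normalization, 83 persisted and 8 rose after cyclic loess, 1, 93 and 16 after scaling, 10 declined and 14 rose with drift removed, 0, 39 and 0 with several probes, 3, 131 and 15 with the 0.5 h baseline, 3 declined and 17 rose with the mean baseline, and 1, 78 and 2 at 1.5 units. Of the repressed genes 28 recovered, 216 persisted and 8 fell further. These were 53 and 364 (recovered, persisted) without centring, 14 and 143 with drift removed, 0, 19 and 1 with several probes, 2, 47 and 1 at 3 probe SD, 18 fell further after cyclic loess, and 438 and 448 persisted with the 0.5 h and mean baselines. Late rise and return to baseline, 60 and 48, were 7 and 7 with several probes, 21 and 20 with the 0.5 h baseline, 11 and 9 at 3 probe SD, and late rise was 36 after cyclic loess. Among genes with several probes the cytokine median (-0.18) became 0.0523, over Mif and Vegfa only, and the place of the median of interferon-inducible GTPases (-0.10) was taken by the step of 1 gene, Igtp, at -0.3250. The cause of these shifts was not tested, apart from fewer genes or probes entering where a setting leaves them out. The median step of all genes stayed between 0.01 and 0.05 in the scalings tried. No paired analysis was possible because each time has 1 array. Dim spots could not be set apart, since no spot brightness was used.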

Other observations

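Several genes outside the pathways above had called steps with all probes of the same sign. Eng, endoglin, a coreceptor for TGF-beta ligands, had 0.10, 0.02, 0.01, 0.37 and -0.14 at 0, 0.5, 2, 7 and 21 h, and its 2 probes fell by 0.82 and 0.19 units. Crot, which moves medium-chain fatty acids out of peroxisomes as carnitine esters, had -0.47 at 7 h and -0.09 at 21 h, with both probes at 0.38. Timm8b, a chaperone of mitochondrial import, had -0.08 and 0.34, with probes at 0.23 and 0.60. Kng1, kininogen, and Cela3b, a pancreatic elastase, rose by 0.41 and 0.39 units over 4 probes each, and both were below the array median on all 5 arrays.

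In other genes 1 probe carried the step. The 5 probes of Glod4 ran from 0.06 to 1.45, the 3 of Ankra2 from -1.31 to -0.04 and the 2 of Grb14 from -1.08 to -0.04. Of 4515 probes with no gene or several genes listed and a value on all arrays, 218 rose and 172 fell by 2 probe SD. Their steps ran from -1.41 to 0.88. They were not assigned to genes.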
